A study of Homo sapiens with 17 samples.

Results

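The snoRNA host noncoding genes are 10 genes, GAS5, ZFAS1, SNHG1, SNHG5, SNHG6, SNHG7, SNHG8, SNHG12, SNHG15 and SNHG16, taken by name from the 57638 genes with a transcript in the deposited tables. For each, the estimated reads of all its transcripts were summed and expressed as CPM, estimated reads scaled to a common total of the reads assigned to genes, in each of 17 libraries, and set beside the ribosomal protein share, the percentage of those reads that fell on 80 cytosolic ribosomal protein genes. The study used K562, an established human leukaemia line with erythroid features. For all 17 libraries the cells received gene-activating CRISPR plasmids by electroporation, then an antisense oligonucleotide (ASO), a short synthetic nucleic acid that base-pairs with RNA, and were processed on day 6. RNA was read from its 3′ ends.

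The libraries fall into groups by their plasmid label alone. The reference arm holds the 3 libraries labelled Neg, RFP and GFP, which name no human gene. Another 10 libraries carry a label without a number in front, "other unprefixed" here: TTR, TRPC5OS, ADORA2A, UBE2V1, COL6A6, E7, GOLGA8N (libraries 1 and 2) and LAPTM4B (libraries 1 and 2). The remaining 4, "prefixed" here, carry a number before the name: 20-ARSF, 21-CTPS2, 22-LAPTM4B and 23-GOLGA8N. What the number or the label E7 stands for, and which ASO was given, are not stated in the labels. With the prefixed library counted in, GOLGA8N and LAPTM4B have 3 libraries each. The labels do not say that libraries came from separate cultures, so the p-values reflect only how far these libraries differ, possibly for technical reasons.

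Total estimated reads ran from 2252097 to 4236396 in 16 libraries and were 569057 in GFP. GOLGA8N, which has near-identical relatives, had at most 0.318 CPM in the libraries with its label and at most 0.249 CPM in the other 14, under 3 reads in any library. LAPTM4B stood at 166 to 222 CPM in its 3 libraries and 156 to 306 CPM in the other 14, and its log2 difference from the reference arm was -0.29 ± 0.20 (SE; edgeR adjusted p = 0.99988). GOLGA8N was too low to be judged and LAPTM4B was not called higher under its own label, so groups are called below by their labels. Of the erythroid markers, the fetal globin HBG2 ran from 2236 to 4777 CPM and the embryonic globin HBZ from 1175 to 3418 CPM over the 17 libraries. The labelled cell type is lymphoblast, but the lymphoid markers MS4A1, CD3E and CD2 had 0 reads in all libraries and 7 lymphoid markers summed to 34.6 to 120 CPM, mostly CD3D. Of 6 fibroblast markers, summing to 21.2 to 64.3 CPM, LUM had 0 reads and COL1A2 (20.7 to 62.6 CPM) made up most of the sum.

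Small nucleolar RNAs (snoRNAs) guide the chemical modification of ribosomal and other RNAs. In human cells most are cut from introns of host genes, and in the hosts studied here the spliced exons make little or no protein. Many such host transcripts begin, as ribosomal protein mRNAs do, with a run of pyrimidines called a TOP motif, which ties their use by ribosomes to growth signals. Because their short reading frames end early, several, GAS5 being the classic example, are degraded by nonsense-mediated decay while they are translated.

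Start sequences are shown because a TOP motif is defined by the first bases of the RNA. They come from RefSeq (GRCh38.p14), 10 bases before and 20 bases after the start, on the gene's strand, and capitals mark the pyrimidines running from the start base.
SNHG5 (chr6:85678714-85678743, minus strand): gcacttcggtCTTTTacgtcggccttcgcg
ZFAS1 (chr20:49278632-49278661, plus strand): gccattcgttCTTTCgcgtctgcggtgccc
SNHG12 (chr1:28581854-28581883, minus strand): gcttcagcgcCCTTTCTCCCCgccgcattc
GAS5 (chr1:173869026-173869055, minus strand): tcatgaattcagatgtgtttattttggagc
SNHG8 (chr4:118278752-118278781, plus strand): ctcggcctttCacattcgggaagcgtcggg

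A start base C followed by at least 4 pyrimidines, read on the gene's own strand, was found in 3 of the 8 host genes matched in the RefSeq table (37.5%), namely SNHG5, ZFAS1 and SNHG12. The same letters were found in 47 of 79 ribosomal protein genes (59.5%) and in 1429 of 35114 genes of the table (4.07%). SNHG5 and ZFAS1 have a run of 5 pyrimidines and SNHG12 a run of 11. The GAS5 window lies wholly outside the GENCODE 29 span of the gene, and its start base is A. The SNHG8 window begins downstream of 118278709, where its main transcript SNHG8-203 (75.9% of its reads) starts. The SNHG12 window lies upstream of 28581623, where its leading transcript SNHG12-207 (41.2% of its reads) starts, while SNHG12-202 (23.3%) starts inside the window. The SNHG7 window lies upstream of 136726483, where its main transcript SNHG7-203 (95.3% of its reads) starts. For these genes the count holds for the RefSeq start only. Whether the GAS5, SNHG7 and SNHG8 transcripts read here, or SNHG12-207, begin with such a run was not tested.

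In GENCODE 29 (GRCh38), SNHG5 (ENSG00000203875.11) spans chr6:85660950-85678748 on the minus strand, GAS5 (ENSG00000234741.7) chr1:173863900-173868882 on the minus strand, ZFAS1 (ENSG00000177410.12) chr20:49278178-49295738 on the plus strand and SNHG8 (ENSG00000269893.6) chr4:118278709-118279823 on the plus strand. The annotation gives all 10 as noncoding types (processed transcript, lincRNA or antisense), so their reads lie in noncoding exons.

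All 10 genes were detected in all 17 libraries, with 176338 estimated reads among them and 1681 in the shallowest library. On the per-length scale of the deposited TPM, the order of the mean levels (± SD, n = 17) was led by SNHG6 at 2179 ± 174 TPM. SNHG5 came next at 1262 ± 342 TPM and SNHG8 after it at 929 ± 164 TPM. SNHG6 was above SNHG5 in all 17 libraries, while SNHG5 was above SNHG8 in 13 of 17 and their ± SD ranges overlapped. ZFAS1 (309 ± 63.8 TPM), GAS5 (281 ± 73.7 TPM) and SNHG1 (187 ± 36.7 TPM) formed a middle set, in which neighbours overlapped within their SD. The lowest were SNHG7 at 45.8 ± 11.0, SNHG12 at 44.0 ± 14.7, SNHG15 at 23.8 ± 10.7 and SNHG16 at 22.5 ± 3.53 TPM, again with overlapping neighbours. TPM divides by transcript length, whereas these libraries read RNA from its 3′ ends, and the order of the CPM means differed. SNHG6 (1023 ± 89.1 CPM) was above SNHG5 (917 ± 282 CPM) in 12 of 17 libraries there. SNHG16, whose main transcript SNHG16-202 is 2424 bases long, was not lowest on the CPM scale but seventh at 145 ± 20.0 CPM, above SNHG12 (51.3 ± 12.7 CPM) in all 17. SNHG7 (44.5 ± 10.2 CPM) and SNHG15 (36.5 ± 16.3 CPM) came last.

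The genes differed in how much they varied between libraries. The coefficient of variation of the CPM was 8.71% for SNHG6, 13.8% for SNHG16 and 14.2% for SNHG8. It was 24.1% for ZFAS1, 26.5% for GAS5 and 30.8% for SNHG5. SNHG15 varied most, by 44.8%, from 15.5 CPM in GOLGA8N library 1 to 74.6 CPM in GFP, where it rested on 41 reads.

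**Figure D1:**
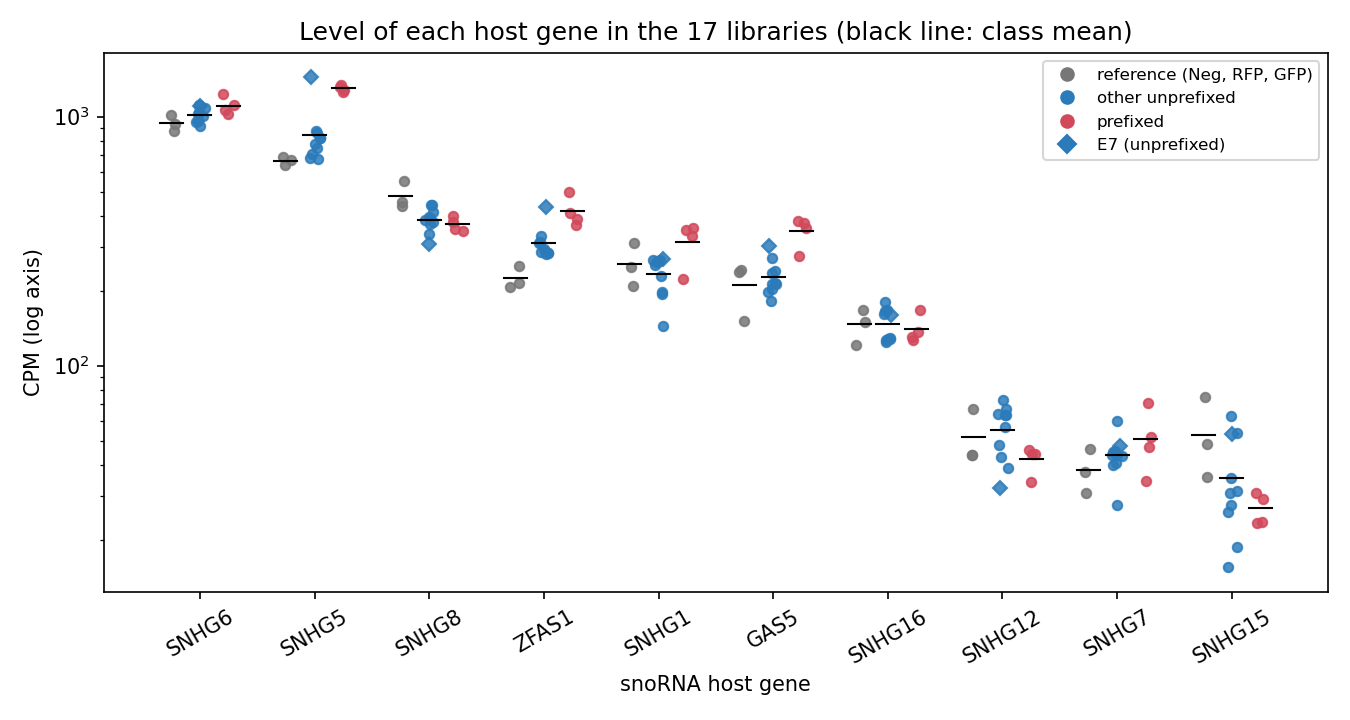
CPM of each host gene (log axis) in the 3 reference (grey), 10 other unprefixed (blue, E7 as a diamond) and 4 prefixed libraries (red), with the class mean as a black line. SNHG5 sits between 1257 and 1342 CPM in the prefixed libraries and at 1435 CPM in E7, against 636 to 873 CPM in the other 12.

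SNHG5, GAS5 and ZFAS1 were higher in the 4 prefixed libraries than in 12 of the 13 unprefixed ones, and the exception was E7 for each. SNHG5, host of the snoRNA SNORD50B, held 1320 CPM in 22-LAPTM4B, 1342 CPM in 21-CTPS2, 1257 CPM in 23-GOLGA8N and 1274 CPM in 20-ARSF. In the other unprefixed libraries it ran from 673 CPM through a median of 797 CPM to 1435 CPM in E7, and in the reference arm it was 636 CPM in Neg, 671 CPM in RFP and 691 CPM in GFP. The prefixed libraries therefore lay above every unprefixed library but E7, which was the highest of all 17. Leaving E7 aside, the prefixed mean was 1.68 times the mean of the other 9.

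GAS5, growth arrest specific 5, whose RNA accumulates in growth-arrested cells, was 359 CPM in 22-LAPTM4B, 381 CPM in 21-CTPS2, 373 CPM in 23-GOLGA8N and 276 CPM in 20-ARSF. Its other unprefixed values ran from 183 CPM through a median of 214 CPM to 303 CPM in E7, and its reference values were 238 CPM in Neg, 243 CPM in RFP and 151 CPM in GFP. The 4 prefixed values lay above the other 12 unprefixed ones, and E7 lay above 20-ARSF.

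ZFAS1, host of the SNORD12 family, was 499 CPM in 22-LAPTM4B, 366 CPM in 21-CTPS2, 387 CPM in 23-GOLGA8N and 412 CPM in 20-ARSF. Its other unprefixed values ran from 281 CPM through a median of 291 CPM to 432 CPM in E7, and its reference values were 252 CPM in Neg, 215 CPM in RFP and 207 CPM in GFP. ZFAS1 separated all 3 reference libraries, which were lowest, from all 10 other unprefixed ones. The 3 classes stood in the same order as the ribosomal protein share, described below.

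**Figure D2:**
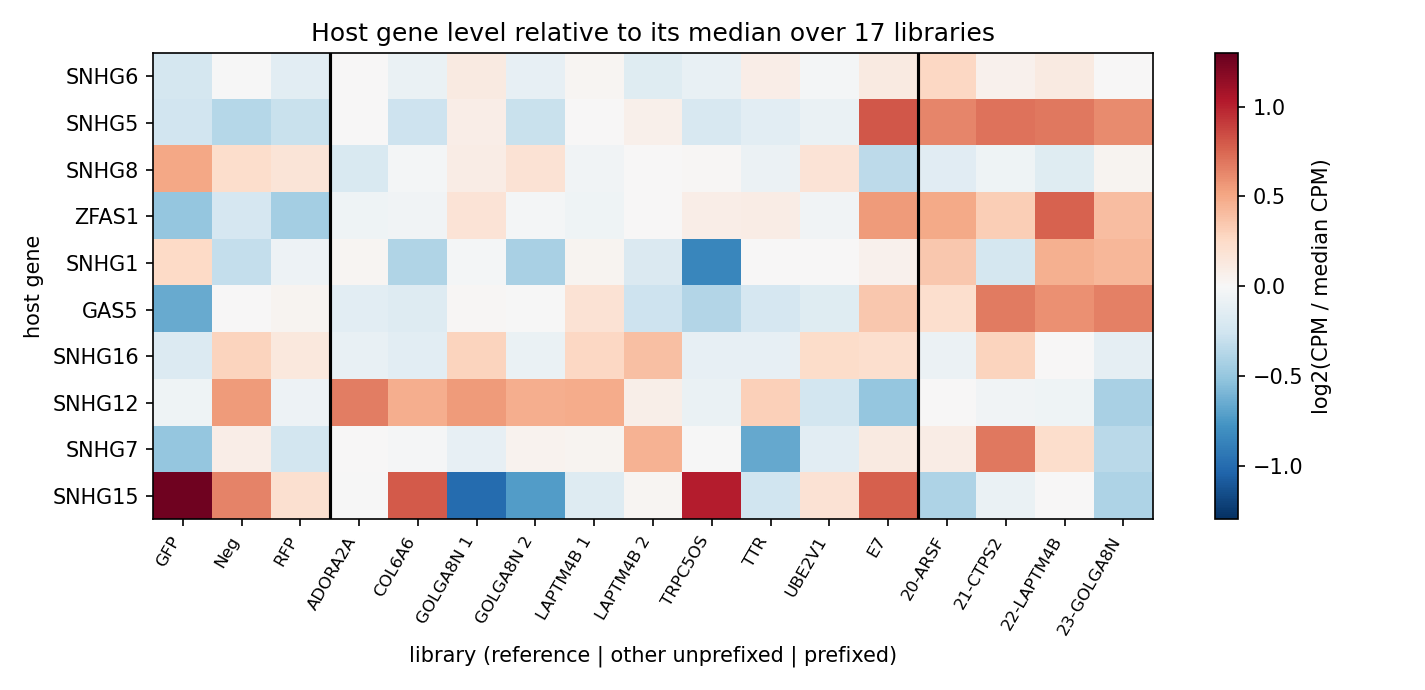
Colour gives log2 of each host gene's CPM over its median across 17 libraries (rows: genes by mean CPM; columns: libraries, with lines between the reference, other unprefixed and prefixed classes). SNHG5, ZFAS1 and GAS5 are above their medians in the 4 prefixed libraries and in E7, and SNHG8 is highest in GFP.

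In the edgeR quasi-likelihood test of the prefixed against the other unprefixed libraries, 28 of 13133 genes were called at an adjusted p under 0.05 (0.213%), 20 of them higher (0.152%). SNHG5 rose by a log2 difference of 0.61 ± 0.13 (SE; edgeR adjusted p = 0.0379) and GAS5 by 0.59 ± 0.13 (edgeR adjusted p = 0.0379), so 2 of the 10 host genes were called. None of the 10 was higher in all 4 prefixed libraries than in all 10 others, as were 0.274% of the genes tested. ZFAS1 had a log2 difference of 0.41 ± 0.12 (edgeR adjusted p = 0.170) and SNHG1, which hosts SNORD22 and its neighbours, one of 0.41 ± 0.15 (edgeR adjusted p = 0.311). SNHG12 and SNHG15 had log2 differences of -0.40 ± 0.21 and -0.42 ± 0.28, and the other 4 lay between -0.09 and 0.20. The median over the 10 genes was 0.15, beside -0.02 over all genes tested.

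The calls, more than the sizes, depended on single libraries. Without E7, 3 host genes were called, SNHG5 (log2 difference 0.73), GAS5 (0.64) and ZFAS1 (0.47, edgeR adjusted p = 0.0212), among 111 of 12842 genes (0.864%). DESeq2 on all libraries called the same 3, ZFAS1 with an adjusted p of 0.0314, among 111 of 13133 genes (0.845%). Without 22-LAPTM4B, 21-CTPS2 or 23-GOLGA8N, 0 of the 10 were called, among 4 of 12802, 9 of 13139 and 8 of 13071 genes in that order. Without 20-ARSF only GAS5 was, among 34 of 12838 genes. Over the fits without 1 prefixed library, the log2 differences stayed between 0.59 and 0.62 for SNHG5 and between 0.55 and 0.69 for GAS5. The SNHG5 value of 0.73 without E7 lay outside that range. With the ribosomal protein share as a term in the fit both calls were lost, and 1 of 13133 genes was called at all. The log2 differences were 0.37 ± 0.16 for SNHG5 (edgeR adjusted p = 0.662) and 0.19 ± 0.16 for GAS5 (edgeR adjusted p = 0.895). The share was 24.9% to 25.7% in the prefixed libraries and at most 24.8% in the other unprefixed ones, so this fit cannot tell class and share apart. HBE1, the embryonic beta-like globin, was also called higher in the prefixed libraries (log2 difference 0.72 ± 0.13, edgeR adjusted p = 0.00780). It was the 1 call among 7 erythroid markers, of which 3 were higher, with a median of -0.04. Its part in the result was not tested. In bulk libraries, more cells with a high level and more RNA per cell cannot be told apart.

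**Figure D3:**
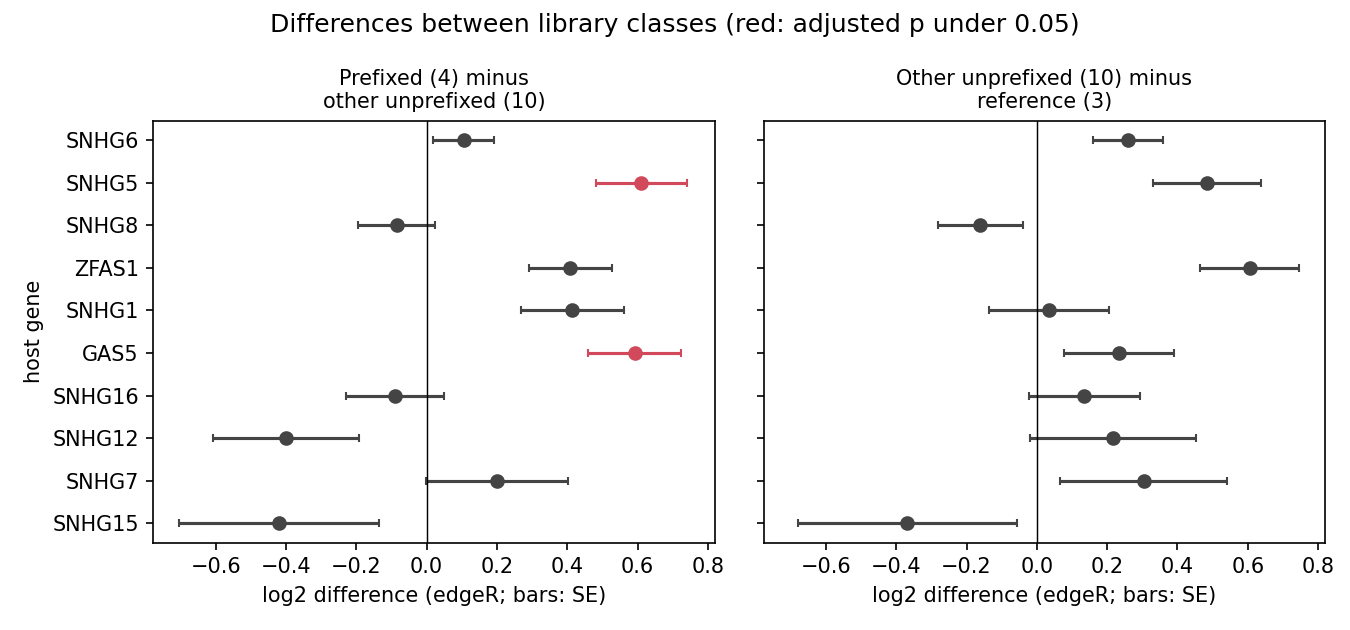
Points give the edgeR log2 difference of each host gene, with bars of 1 SE, for prefixed minus other unprefixed libraries (left) and other unprefixed minus reference libraries (right); red marks an adjusted p under 0.05. SNHG5 (0.61) and GAS5 (0.59) are red on the left, and no point is red on the right.

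Between the other unprefixed libraries and the reference arm, 7 of 13133 genes were called (0.0533%) and 0 of the 10 host genes, of which 3 had an unadjusted p under 0.05, as did 1123 of all genes tested. ZFAS1 came nearest, with a log2 difference of 0.61 ± 0.14 (edgeR adjusted p = 0.0890), and it was called by DESeq2 (adjusted p = 0.00580). ZFAS1 was also the 1 host gene whose values did not overlap between the classes, beside 0.602% of all genes tested that were higher without overlap. SNHG5 had a log2 difference of 0.48 ± 0.15 (edgeR adjusted p = 0.308).

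The libraries labelled GOLGA8N and LAPTM4B were each compared with the reference arm, which both comparisons share. With GOLGA8N, 2 of 11916 genes were called (0.0168%; 677 had an unadjusted p under 0.05), and with LAPTM4B 0 of 11916 (0.0%), 470 of which had an unadjusted p under 0.05 (DESeq2 called 3). None of the 10 host genes was called in either by edgeR or DESeq2, although 4 had an unadjusted p under 0.05 with GOLGA8N (ZFAS1, SNHG5, GAS5 and SNHG15) and 2 with LAPTM4B (ZFAS1 and SNHG5). For LAPTM4B the DESeq2 adjusted p was 0.0503 for ZFAS1 and 0.0564 for SNHG5. DESeq2 gave no adjusted p there for SNHG7, SNHG12, SNHG15 and SNHG16. ZFAS1 had log2 differences of 0.72 ± 0.21 and 0.81 ± 0.21, SNHG5 of 0.64 ± 0.21 and 0.73 ± 0.21, and GAS5 of 0.55 ± 0.25 and 0.51 ± 0.25, for GOLGA8N and LAPTM4B in that order. ZFAS1 was higher without overlap in both, as were 3.79% and 3.68% of all genes, and SNHG5 was so for LAPTM4B. SNHG8 and SNHG15 were lower without overlap for LAPTM4B, as were 6.45% of all genes. Without a filter on low counts edgeR called SNHG5 for GOLGA8N, among 0.172% of genes, and SNHG5 and ZFAS1 for LAPTM4B, among 0.102%.

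These means hold 1 prefixed library each. SNHG5 was 1257 CPM in 23-GOLGA8N, 873 CPM in GOLGA8N library 1 and 673 CPM in library 2, and it was 1320 CPM in 22-LAPTM4B, 821 CPM in LAPTM4B library 1 and 860 CPM in library 2. In both sets the prefixed library was the highest. With the prefix as a term in the fit, the SNHG5 log2 differences were 0.37 and 0.46 those of ZFAS1 0.53 and 0.56, and those of GAS5 0.30 and 0.25, in the same order.

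SNHG15 was low under the GOLGA8N label, at 15.5 CPM in library 1, 18.7 CPM in library 2 and 23.5 CPM in 23-GOLGA8N. It was 48.3 CPM in Neg, 35.7 CPM in RFP and 74.6 CPM in GFP, so the groups did not overlap, as was so for 8.03% of all genes in that direction. Its log2 difference was -1.26 ± 0.36 (edgeR adjusted p = 0.597), and -0.998 without GFP. Against the LAPTM4B label (27.6, 31.5 and 30.9 CPM) the values also did not overlap, as for 4.42% of all genes in that direction, with a log2 difference of -0.64 ± 0.36 (edgeR adjusted p = 0.99996). Low SNHG15 was not confined to the GOLGA8N label, as it was 23.5 CPM in 20-ARSF and 25.8 CPM in TTR, though 62.6 CPM in TRPC5OS. Its mean was 52.8 CPM in the reference arm, 35.5 CPM in the other unprefixed libraries and 26.7 CPM in the prefixed ones. SNHG8 was higher without overlap under the GOLGA8N label than under LAPTM4B, as were 3.93% of all genes. That direct comparison called 1 of 11916 genes (0.00839%) and 0 host genes by edgeR or DESeq2, and 0 of the 10 had an unadjusted p under 0.05, against 243 of all genes tested.

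The ribosomal protein share was 23.0% ± 0.83 (SD, n = 3) in the reference arm, 24.3% ± 0.42 (n = 10) in the other unprefixed libraries and 25.4% ± 0.34 (n = 4) in the prefixed ones, with E7 at 24.8%. The mitochondrial share of the same reads was 14.5% ± 0.75, 16.1% ± 0.99 and 14.5% ± 1.15 in that order, and its part in the results was not tested. In an edgeR fit on the share over 17 libraries, 52 of 7976 genes were called (0.652%), 37 of them rising with it (0.464%). GAS5 rose by 0.36 ± 0.06 log2 units per percentage point (SE; edgeR adjusted p = 0.00285), ZFAS1 by 0.35 ± 0.06 (edgeR adjusted p = 0.00285) and SNHG5 by 0.38 ± 0.06 (edgeR adjusted p = 0.00304). The other 7 were not called, with slopes from -0.29 for SNHG15 to 0.20 for SNHG7. The median over the 10 was 0.14, beside 0.00 over all genes tested. HBE1 was called too, at 0.42 ± 0.08 (edgeR adjusted p = 0.0220).

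The share follows the library class, so the slope was refitted within the 13 unprefixed libraries. There 44 of 6545 genes were called (0.672%) and 0 of the 10 host genes by edgeR, 5 of which had an unadjusted p under 0.05, as did 938 of all genes tested. The slopes were 0.30 ± 0.08 for ZFAS1 (edgeR adjusted p = 0.0618), 0.28 ± 0.08 for SNHG5 (adjusted p = 0.131) and 0.24 ± 0.08 for GAS5 (adjusted p = 0.165). With class as a term, edgeR called 0 of 7976 genes (0.0%), 609 of which had an unadjusted p under 0.05, 2 of them host genes (GAS5 and SNHG16), and the slopes were 0.17 ± 0.11, 0.22 ± 0.11 and 0.38 ± 0.11 in the same order. Class and share could therefore not be told apart for these genes. In the 12 unprefixed libraries without E7, 97 of 6480 genes (1.5%) and 0 host genes were called by edgeR, and the slopes were 0.17 ± 0.06 for SNHG5, 0.24 ± 0.08 for ZFAS1 and 0.19 ± 0.09 for GAS5. Within the 4 prefixed libraries, which leave few degrees of freedom, edgeR called 9 of 8172 genes (0.11%) and 0 host genes, none of which had an unadjusted p under 0.05. The slopes there were 0.55 ± 0.35 for GAS5, 0.34 ± 0.33 for ZFAS1 and 0.09 ± 0.27 for SNHG5.

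**Figure D4:**
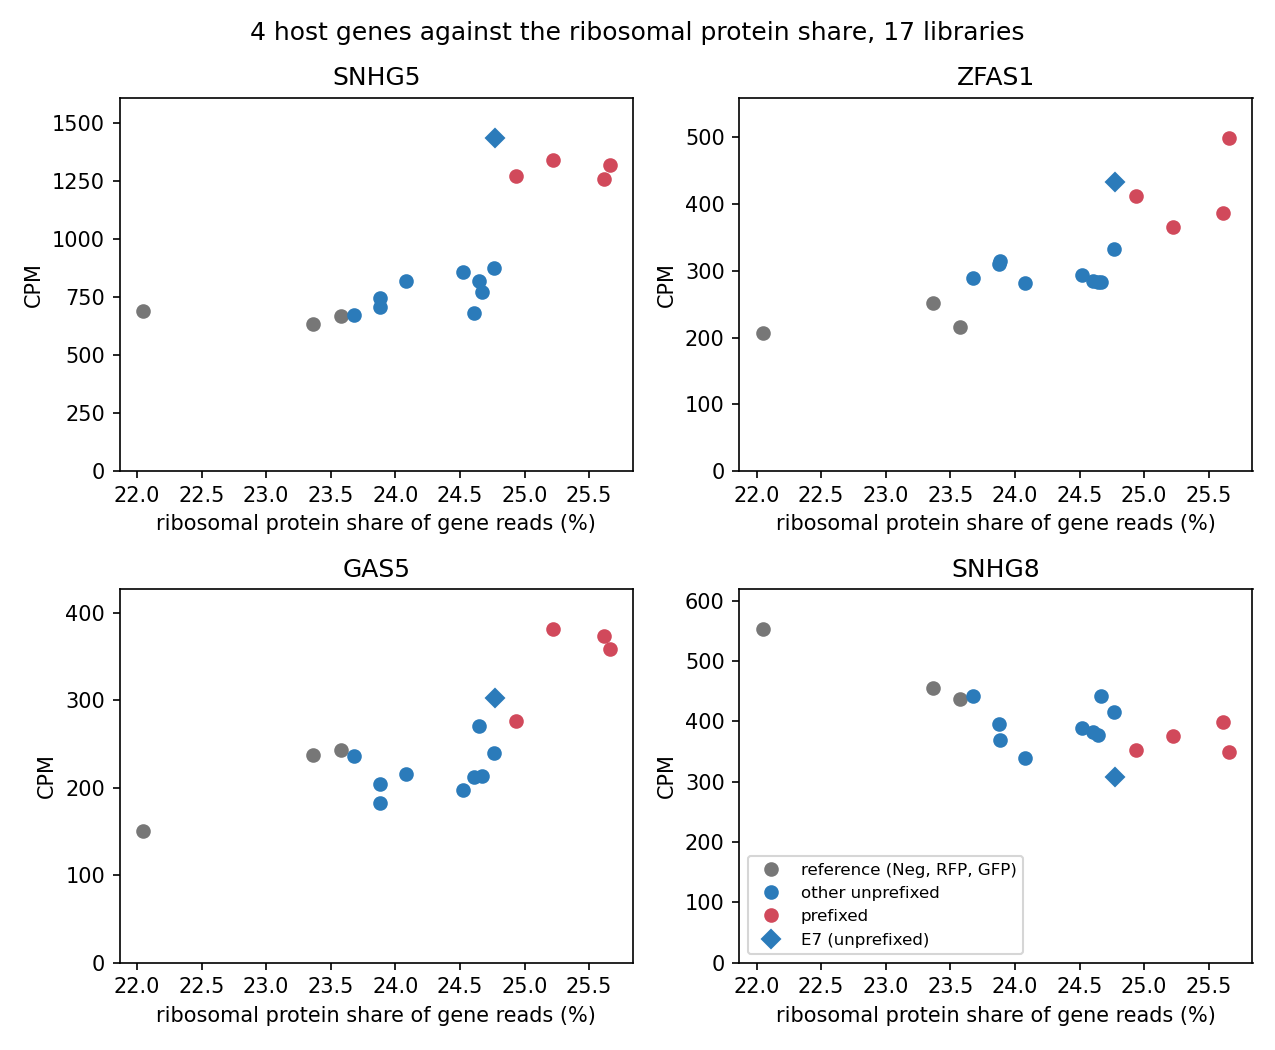
CPM of SNHG5, ZFAS1, GAS5 and SNHG8 against the ribosomal protein share of gene reads in percent, 1 point per library (grey reference, blue other unprefixed, diamond E7, red prefixed). SNHG5 in E7, 1435 CPM at a share of 24.8%, stands apart from the other unprefixed libraries, which reach 873 CPM.

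As a plain correlation of log2(CPM + 1) with the share, computed for each of the 10 genes, ZFAS1 gave Pearson r = 0.826 (permutation p = 7e-05, two-sided) and Spearman rho = 0.816 (permutation p = 0.00013) over 17 libraries, and r = 0.719 (permutation p = 0.00737) within the 13 unprefixed. GAS5 gave r = 0.793 (permutation p = 0.0001) and rho = 0.723 (permutation p = 0.00137) over 17, and r = 0.610 (permutation p = 0.0307) within the 13. Without GFP and Neg, the libraries farthest from the median share, the values within the unprefixed fell to r = 0.524 (permutation p = 0.0892) for ZFAS1 and r = 0.327 (permutation p = 0.327) for GAS5, so they rest in part on those 2. SNHG5 gave r = 0.7525 (permutation p = 0.00037) and rho = 0.880 (permutation p = 3e-05) over 17, where its values fall into separate clusters. Within the 13 its r was 0.540 (permutation p = 0.0720) and its rho 0.813 (permutation p = 0.00105), and without the same 2 libraries r was 0.595 (permutation p = 0.0240). These p-values are not adjusted; the adjusted values over all genes are those of the slopes.

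SNHG8, host of SNORA24, went the other way. It was 455 CPM in Neg, 437 CPM in RFP and 553 CPM in GFP, 348 to 399 CPM in the prefixed libraries and lowest, at 307 CPM, in E7. Its r with the share was -0.680 (permutation p = 0.00339) and rho -0.581 (permutation p = 0.0163) over 17 libraries, and -0.716 (permutation p = 0.00678) within the 13 unprefixed. Without GFP and Neg the r fell to -0.335 (permutation p = 0.220) over the other 15, and its slope in the edgeR fit was not called (-0.11 ± 0.05, adjusted p = 0.271). SNHG6 gave r = 0.628 (permutation p = 0.00673) and rho = 0.701 (permutation p = 0.00244) over 17, but r = 0.220 (permutation p = 0.388) on the deposited TPM.

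Summed over the 10 genes, the prefixed libraries held 4007 to 4254 CPM, E7 4145 CPM and the other 12 from 2976 to 3517 CPM. The order of the top 5 was unlike on the deposited TPM, where GOLGA8N library 1 (5440 TPM) stood above 23-GOLGA8N (5425 TPM).

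Reads within a gene came mostly from few transcripts. SNHG5-202 held 89.8% to 95.3% of the SNHG5 estimate in every library, and it was 95.3% in E7. ZFAS1 was split between ZFAS1-201 (34.1% to 57.2%) and ZFAS1-204 (37.0% to 62.6%), and GAS5 between several forms, led by GAS5-223 (28.2% to 49.6%). Such splits are estimates from 3′ reads, which overlap between forms. Of 26 snoRNA genes annotated inside 9 of the hosts, 10 had no reads in any library and the 26 held 169.3 estimated reads. This annotation places none inside GAS5, and it enters SNORA17B and SNORA16A more than once. Whether libraries read from 3′ ends capture the snoRNAs themselves was not tested, so these reads give no snoRNA levels. Exons of GAS5, ZFAS1, SNHG6, SNHG7, SNHG12 and SNHG16 overlap exons of other genes on the opposite strand, and the sources used here do not say whether reads were assigned by strand, so reads of such partners cannot be told apart.

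Related genes were taken from lists. Among 14 other noncoding hosts, 13 were tested between prefixed and other unprefixed libraries and 0 were called, with a median log2 difference of 0.13; SNHG25 had 0.23 ± 0.12 and LRRC75A-AS1 0.19 ± 0.12. Of 17 other mRNAs with a TOP motif 0 were called (median 0.11), among them the elongation factors EEF1A1 (-0.09 ± 0.08) and EEF2 (0.12 ± 0.09). Of 18 proteins of snoRNA particles 0 were called (median -0.06), with the methyltransferase FBL at -0.06 ± 0.11 and SNU13 at 0.04 ± 0.12. Of 14 factors of nonsense-mediated decay, 13 were tested and 0 called (median 0.02), MAGOH at -0.44 ± 0.14 and RBM8A at -0.22 ± 0.12. Of the 80 ribosomal protein genes 1 was called, RPLP1, at 0.36 ± 0.08 (edgeR adjusted p = 0.0451), and their median was 0.01.

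Among 2477 other genes averaging at least 50 CPM, the 5 whose log2 level was most like the summed host genes over 17 libraries were H19 (Pearson r = 0.911), RPL41 (0.897), MT2A (0.879), JUN (0.879) and MCL1 (0.877), chosen for that likeness and given with no test. Over the 13 unprefixed libraries the r values were 0.908, 0.804, 0.791, 0.669 and 0.737. H19, an imprinted noncoding RNA that hosts a microRNA, was 158 to 281 CPM in the prefixed libraries, 317 CPM in E7 and 80.2 to 127 CPM in the other 12.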

How the data were processed

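RNA of 17 K562 libraries was read from its 3′ ends (Lexogen QuantSeq, 12-base molecular identifiers, per the labels' protocols). The authors deposited 1 Salmon table per library (Salmon 0.7.2, GRCh38, per the submitters' processing notes) with estimated counts and TPM per transcript. The sources used here do not say whether molecular identifiers were collapsed in these tables.

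Estimated counts were summed per GENCODE 29 gene (205336 of 228297 listed transcripts matched; 3.32% to 3.60% of reads did not), rounded for tests, and divided by the reads in genes for CPM. Tests used edgeR 4.0.16 (TMM, filterByExpr, robust quasi-likelihood, Benjamini-Hochberg over all genes tested, threshold 0.05) in 1 fit of 9 libraries for the labelled arms and 1 of 17 for the classes. The slope on the share left out ribosomal protein genes. DESeq2 1.42.0, other size factors, no filter, added terms and left-out libraries were alternatives. The edgeR fits were tested on simulated data. Permutation p-values used 100000 draws for the 10 host genes only, not all genes as first planned, so they carry no adjustment. Named genes were the 10 hosts, the 2 with the highest mean CPM of each related list, and the 5 most like the summed hosts. HBE1 and RPLP1 fall outside that rule and were chosen after their values were seen. The members and lists were chosen with earlier results of these data known. Some marker and overlap results are not reported here.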

Additional observations from a re-analysis of the deposited data

Results flagged for a closer look

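Of 22 sets of values checked, 4 held a library far from the rest of its class, where chance flags about 1 set in 20. In the other unprefixed libraries it was E7 each time: SNHG5 was 1435 CPM there against 673 to 873 CPM in the other 9, ZFAS1 was 432 CPM against 281 to 333 CPM, and the sum of the 10 host genes was 4145 CPM against 2976 to 3517 CPM. In the prefixed libraries SNHG12 was 34.0 CPM in 23-GOLGA8N against 44.1 to 45.7 CPM in the other 3. The sum of the 10 host genes contains SNHG5 and ZFAS1, so its flag is not independent of theirs. The 4 flags among 22 sets therefore cannot be set against 1 in 20.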

How the results depend on the processing

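The 116 recomputed counts pool counts of all called genes with counts of called host genes, and many of the latter were 0 throughout. Of these 116, 63 stayed within 1.5 times the main count, which therefore does not measure how stable the counts of all called genes were. For GOLGA8N against the reference arm, where 2 genes were called, the count was 12 with DESeq2, 1 with median-ratio size factors, 42 without a filter (1 of them a host gene, SNHG5), 6 with the label prefix as a term and 1 to 5 leaving out 1 library (lowest without RFP, GFP or GOLGA8N library 1, highest without 23-GOLGA8N). For LAPTM4B against the reference arm, where 0 were called, it was 3 with DESeq2, 25 without a filter (2 of them host genes, SNHG5 and ZFAS1) and 0 to 1 leaving out 1 library. For GOLGA8N against LAPTM4B, where 1 was called, it was 3 with DESeq2, 9 without a filter and 1 to 3 leaving out 1 library. The libraries titled 1 and 2 share numbers, but their deviations correlated by only 0.085 over 8885 genes; both the fit with the replicate block and the one without it on these 4 libraries called 2 genes and 0 host genes.

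For the prefixed libraries, where 28 genes and 2 host genes were called, the gene count was 111 with DESeq2, 107 without a filter, 111 without E7, 1 with the ribosomal protein share as a term (0 host genes) and 4 to 34 leaving out 1 prefixed library (0 to 1 host genes). For the other unprefixed libraries against the reference arm, where 7 genes were called, it was 64 with DESeq2 (1 host gene), 0 with median-ratio size factors (1079 genes at an unadjusted p under 0.05), 106 without a filter (2 host genes) and 1 to 3 leaving out 1 reference library. For the slope on the share, where 52 were called, it was 173 with DESeq2, 943 without a filter, 9 without GFP, 7 without GFP and Neg, 0 with class as a term, 97 in the 12 unprefixed libraries without E7 and 9 in the 4 prefixed ones. Host genes called went from 3 to 0 in the 13 unprefixed libraries, in the 12 without E7, in the 4 prefixed and with class as a term, and stayed at 3 in the other settings. The alternatives without E7, within the prefixed libraries, with the share as a term in the class fit, and without the 2 farthest unprefixed shares were chosen after seeing the data.

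Signs turned in 38 of 694 recomputed values of single host genes and sums, none in a comparison where edgeR called that gene. Leaving out 1 library, the log2 difference of GOLGA8N from the reference arm ranged from -0.021 to 0.40 for SNHG1 (-0.017 with the prefix as a term), -0.088 to 0.041 for SNHG8 and -0.065 to 0.20 for SNHG16, and that of LAPTM4B from -0.038 to 0.40 for SNHG12. Between GOLGA8N and LAPTM4B it ranged from -0.21 to 0.30 for GAS5, -0.24 to 0.25 for ZFAS1 (0.14 with and 0.14 without the replicate block), -0.33 to 0.13 for SNHG1, -0.36 to 0.18 for SNHG5, -0.068 to 0.098 for SNHG6 (-0.0048 without a filter) and -0.093 to 0.34 for SNHG12. SNHG1 in the other unprefixed libraries ranged from -0.079 to 0.18, and was -0.015 with DESeq2 and -0.018 with median-ratio size factors. On the share, the SNHG1 slope was -0.0091 without E7 in the unprefixed, and its r -0.098 in the 13 and -0.166 in the 12, whereas without GFP alone the slope was 0.33 (edgeR adjusted p = 0.0987) and r 0.638 (permutation p = 0.00718), and without GFP and Neg r was 0.628. The SNHG12 slope was 0.051 in the 13 and 0.135 in the 12, with r of 0.025 and 0.238. In the 4 prefixed libraries the slopes of SNHG6, SNHG7, SNHG8, SNHG15 and SNHG16 were -0.155, -0.309, 0.176, 0.344 and -0.0065. The r of SNHG15 was 0.058 in the 13 without GFP and Neg. The cause was not tested. GFP, with 569057 reads, sets the widest counting error.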
